A study of Saccharomyces cerevisiae with 23 samples.

Results

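The genes described here are 10 genes of thiamine (vitamin B1) synthesis and uptake in budding yeast, out of 6334 features on a spotted-oligo array. They were chosen by name, with earlier results on the same values known, among them the wide spread of this pathway between lines and the means of THI4 and THI21. Those values are therefore given as a description. All 10 were found in the deposited table by systematic name, and each name carries the same symbol in the current annotation: THI4 (YGR144W), THI5 (YFL058W), THI11 (YJR156C), THI12 (YNL332W), THI13 (YDL244W), THI20 (YOL055C), THI21 (YPL258C), THI6 (YPL214C), THI7 (YLR237W) and PHO3 (YBR092C).

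The samples were 23 mutation accumulation lines of Saccharomyces cerevisiae, labelled 19-1 to 19-50 with gaps and named here by the number after the hyphen. Mutation accumulation keeps lines apart under little selection, and each collects its own mutations. The lines grew unsynchronized in YPD, a rich glucose medium that contains thiamine, at 30 °C to an OD600 of about 1.0, and their cDNA carried the dye Alexa Fluor 555. The reference on every array was strain YPS183, grown in the same medium to an OD600 of 1.1 and labelled with Alexa Fluor 647. The labels name no genotype, ancestor or ploidy for the lines, and no sample of an ancestor was analysed here.

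Each value is a log ratio of line and reference, read as log2. The labels do not say which of them is the numerator, so "high" and "low" below compare deposited values between lines, and "positive" and "negative" give the deposited sign, with no direction between line and reference. Differences between lines compare arrays of 1 dye orientation, whereas any dye effect stays in a mean over lines, because all arrays had the same dye orientation. The median of a column was within -0.018 and 0.018, and its SD was 0.245 to 0.583. Over all features the columns of 2 lines correlated between -0.64 (lines 4 and 44) and 0.90 (lines 1 and 45), and 28 of 253 pairs had r under -0.3. The near-identity of lines 1 and 45 reached the thiamine genes only in part, with THI4 at -0.91 and -1.27 and PHO3 at -0.97 and -2.03. A column stands for a line, and the sources used here do not say whether it averages the 2 replicates that the design text mentions, so line, culture and array cannot be told apart.

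Yeast builds thiamine from a thiazole and a pyrimidine. Thi4 makes the thiazole, and the near-identical Thi5, Thi11, Thi12 and Thi13 make the pyrimidine phosphate from pyridoxal phosphate and histidine. Thi20 and Thi21 are kinases that add the second phosphate to the pyrimidine, and Thi6 joins the pyrimidine and the thiazole into thiamine phosphate. Thi7 carries thiamine across the plasma membrane, and Pho3 is a periplasmic acid phosphatase that frees thiamine from its phosphates for uptake. Most of these genes are repressed when thiamine is plentiful and are induced through Thi2, Thi3 and Pdc2 when it is scarce.

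The thiamine genes spread widely from line to line, and no gene of the set was uniformly positive or negative. Their median SD over the 23 lines was 1.00, where the median over all features was 0.256. In the order of SD over all features, PHO3 (SD 1.15) was at rank 26, THI4 (1.08) at 38, THI13 (1.07) at 41, THI12 (1.03) at 48, THI11 (1.00) at 56, THI20 (0.995) at 59 and THI5 (0.995) at 60. THI7 (0.79), THI6 (0.57) and THI21 (0.50) varied less, at ranks 211, 594 and 846. All 10 genes were positive in lines 6 and 40, and all 10 were negative in lines 8, 21, 44, 45 and 50.

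**Figure D1:**
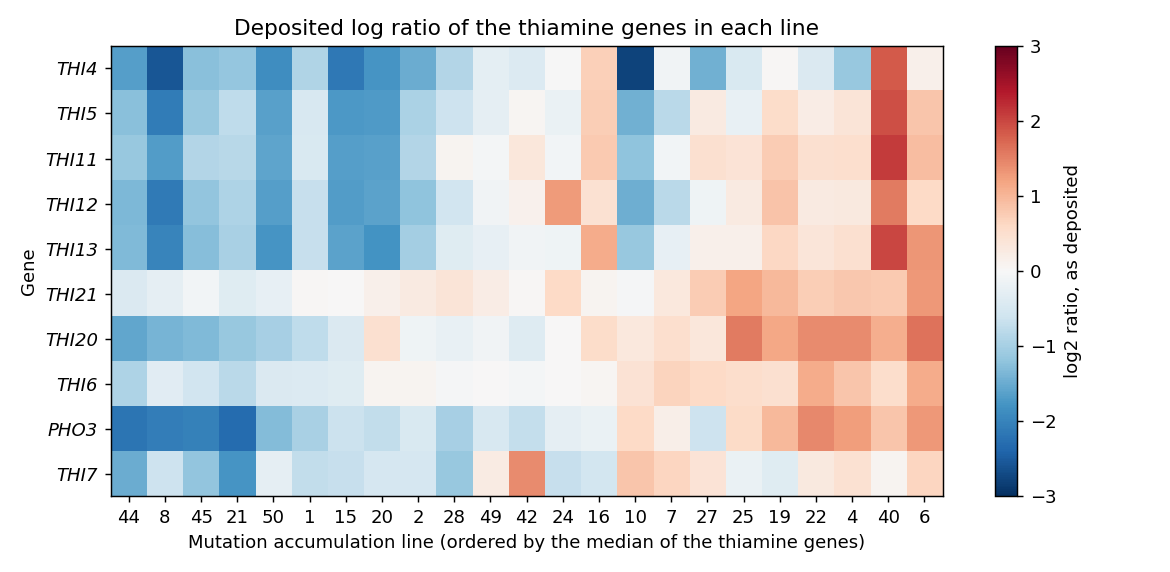
Deposited log ratio, read as log2, of each thiamine gene (vertical axis) in each mutation accumulation line (horizontal axis). Lines are ordered by the median over the thiamine genes. The columns for lines 44, 8, 45, 21 and 50 are negative throughout, those for lines 40 and 6 are positive throughout, and line 10 has THI4 at -2.77 beside THI7 at 0.84.

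THI4, the thiazole synthase gene, had the lowest mean of the set and the widest range. Its value ran from -2.77 in line 10 through a median of -0.91 to 1.83 in line 40, a range of 4.60, and it was negative in 19 of 23 lines. Lines 8 (-2.56) and 15 (-2.15) were next to line 10 at the low end. Line 40 stood alone at the high end, since the next value was 0.72 in line 16.

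The pyrimidine synthase genes followed THI4. THI5 ran from -2.10 in line 8 through a median of -0.49 to 1.94 in line 40. THI11 ran from -1.68 through -0.09 to 2.10, THI12 from -2.12 through -0.57 to 1.56 and THI13 from -1.99 through -0.25 to 2.01, each with its lowest value in line 8 and its highest in line 40. The mean of the 4 genes had a Pearson r of 0.89 to THI4 over the 23 lines (Spearman rho 0.88), and 0.86 without lines 10 and 40, the 2 farthest from the THI4 median. All points share the reference RNA, and this and the other correlations are given as descriptions.

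THI4 lay below the pyrimidine synthase mean in 22 of 23 lines, line 7 being the exception. The pyrimidine synthase mean exceeded THI4 most in line 27 (by 1.64), line 4 (by 1.55) and line 10 (by 1.45), and by 0.77 or less in the other lines. THI4 was negative and the pyrimidine synthase mean positive in 6 lines, 4, 22, 24, 25, 27 and 42. The gap was widest in lines 4 and 27, with THI4 at -1.14 and -1.45 and the pyrimidine synthase mean at 0.42 and 0.20.

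Within the pyrimidine synthase family the 4 spots agreed closely, with pairwise r from 0.92 to 0.98. Their SD within a line had its largest value, 0.71, in line 24, where THI12 was at 1.27 while THI5 was at -0.20, THI11 at -0.09 and THI13 at -0.13. No other spot of the family differed so much from the mean of the other three: THI12 exceeded it by 1.41 in line 24, and the next largest gap was 0.61, for THI11 in line 28. Without line 24, the lowest r of THI12 with the other three was 0.97, against 0.92 with it. Line 24 was chosen after its values were seen. These genes are near-identical, so the spots may share transcripts, and whether each measures its own gene was not tested.

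**Figure D2:**
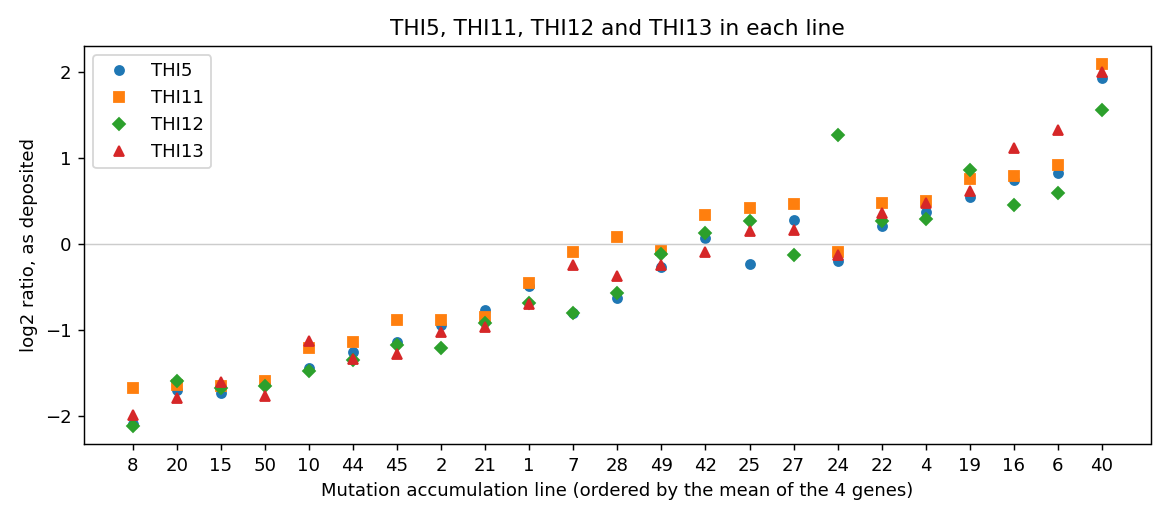
Deposited log ratio, read as log2 (vertical axis), of THI5, THI11, THI12 and THI13, drawn as separate symbols. Lines (horizontal axis) are ordered by the mean of the 4 genes. The symbols lie close together in most lines, from about -2 in line 8 to about 2 in line 40, and THI12 at 1.27 stands apart in line 24.

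The genes next to THI12 did not stand out in line 24. SNZ2 and SNO2 on one side were at 0.08 and 0.24, and AAD14 and RPD3 on the other were at 0.28 and 0.22. Each pyrimidine synthase gene has an AAD, hexose transporter or vitamin B6 gene beside it in the annotation. THI5 and THI12 neighbour SNZ3 and SNZ2, whose products make pyridoxal phosphate, and their r with these neighbours was 0.68 and 0.67. Without lines 8 and 40 the first was 0.56, and without lines 24 and 40 the second was 0.64. SNO3 and SNO2, the next genes along, had lower r, 0.55 with THI5 and 0.39 with THI12. Without the same lines these were 0.29 and 0.20. THI4, on chromosome VII and not beside them, had r of 0.58 with SNZ3 and 0.61 with SNZ2. A positive r with SNZ3 and SNZ2 was therefore not particular to their neighbours. The aryl-alcohol dehydrogenase genes beside the family had r of -0.07 (AAD10 with THI11), 0.19 (AAD14 with THI12) and 0.33 (AAD4 with THI13). The hexose transporter genes HXT16, beside THI11, and HXT15, beside THI13, had r of -0.53 and -0.52. Whether the HXT15 and HXT16 spots share signal was not tested.

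The kinase genes were high and low in the same lines, at different sizes. THI20 ran from -1.57 in line 44 through a median of 0.02 to 1.64 in line 6. THI21 ran from -0.43 in line 44 through 0.23 to 1.29 in line 6. Both therefore had their extremes in the same lines, with r = 0.89 (rho 0.89), and the SD of THI20 was 0.995 where that of THI21 was 0.50. They are close paralogs, and cross-hybridization between their spots was not tested. THI22, a related gene without a shown part in synthesis, had r of 0.06 with THI20 and 0.16 with THI21. These were 0.42 and 0.43 once the leading component of the whole table, described below, was removed.

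THI6, whose product joins the pyrimidine and the thiazole, ran from -0.92 in line 44 through 0.05 to 1.12 in line 22. It followed THI20 closely, with r = 0.93 (rho 0.92, and 0.91 without lines 6 and 22). Its r with THI4 was 0.40 (rho 0.42).

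PHO3, the thiamine-repressible acid phosphatase gene, had the highest SD of the set. Its value ran from -2.31 in line 21 through a median of -0.49 to 1.44 in line 22. Lines 44 (-2.19), 8 (-2.08) and 45 (-2.03) were close to line 21, and lines 6 (1.30) and 4 (1.26) were close to line 22. Its r was 0.95 with THI20 and 0.92 with THI6, against 0.48 with THI4.

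THI7, the thiamine transporter gene, had no close partner in the set. It ran from -1.76 in line 21 through -0.37 to 1.41 in line 42, and its r with the other genes of the set lay between 0.19 (THI4) and 0.72 (THI6). In line 42 the other 9 genes lay between -0.71 and 0.34. In line 10 THI7 was at 0.84, its second highest value, while THI4 was at its lowest. Its paralog NRT1, a transporter gene for nicotinamide riboside, had r = 0.78 with THI7 (0.65 without lines 21 and 42) and was also high in line 42 (0.67) and low in line 21 (-0.75). Another paralog, THI72, had r = -0.27. Cross-hybridization between THI7 and NRT1 was not tested.

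**Figure D3:**
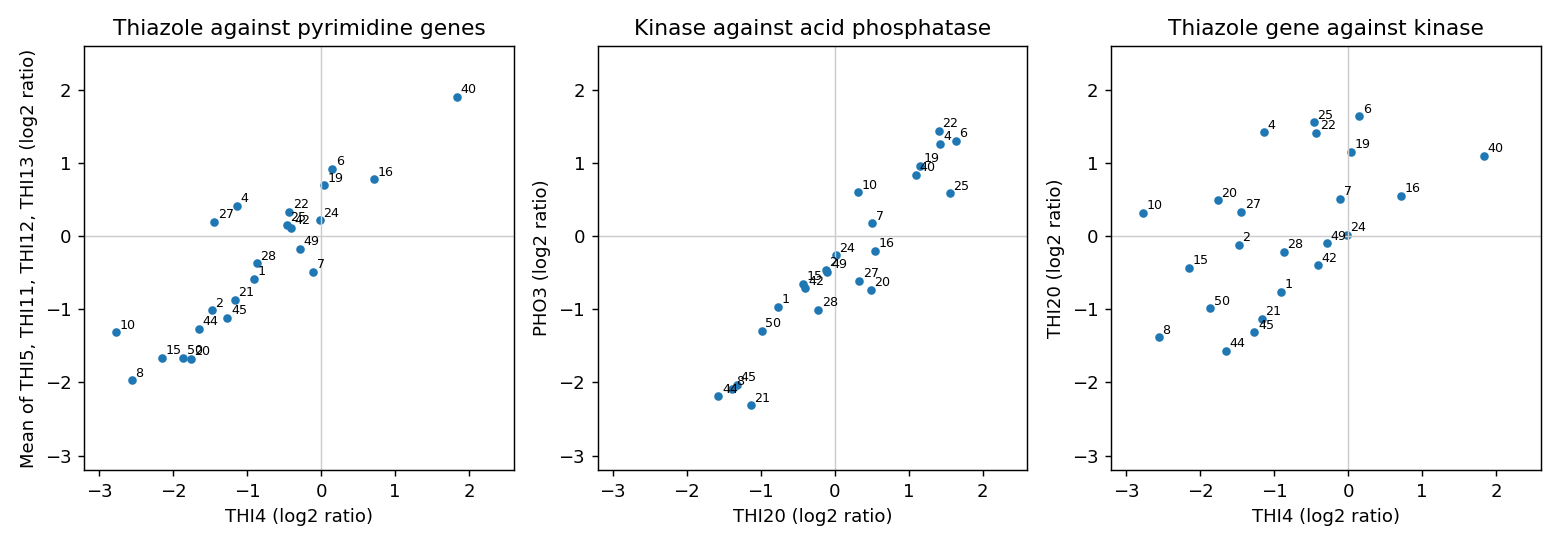
Deposited log ratios, read as log2, of pairs of thiamine genes, with 1 point per line and the line number beside it. THI4 and the mean of THI5, THI11, THI12 and THI13 lie along a line (r = 0.89), as do THI20 and PHO3 (r = 0.95), while THI4 against THI20 scatters (r = 0.53), with lines 10, 20 and 4 at low THI4 and positive THI20.

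The set thus held a pair of groups with high correlation inside each and lower correlation between them, a division made after the values were seen. Among THI6, THI20, THI21 and PHO3 the 6 pairwise r lay between 0.82 and 0.95. Between these 4 and THI4 or the pyrimidine synthase mean, the 8 values lay between 0.40 and 0.75. With the family counted as 1 profile, the median over all 21 pairs of the set was 0.68, where the median over all pairs of features was -0.0018 and that of the absolute r was 0.24.

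The signs of a precursor mean and a later mean were counted in each line, as a description that also reflects their offset from each other. The later mean left out THI21 and PHO3. The mean of THI4 and the pyrimidine synthase mean, taken as precursor genes, was negative in 18 lines. The mean of THI6 and THI20, the later steps, was negative in 11 of those and positive in the other 7, which were lines 4, 7, 10, 20, 22, 25 and 27. Both means were positive in lines 6, 16, 19, 24 and 40, and the reverse pattern, precursor genes positive and later genes negative, was seen in 0 lines. Line 10 had the largest gap, with -2.04 for the precursor genes and 0.38 for the later ones, followed by line 20 with -1.72 and 0.29. In line 20 THI21 was at 0.15 and PHO3 at -0.73, neither of them in the later mean. In line 40 the precursor genes were at 1.87 and the later ones at 0.81.

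Markers of culture state were correlated with most of the thiamine genes, the stress genes most strongly with PHO3, THI20, THI6 and THI21. The median of 12 stress marker genes ran from -2.43 in line 6 to 0.82 in line 44. Its r was -0.90 with PHO3, -0.83 with THI20, -0.82 with THI6 and -0.78 with THI21, but -0.54 with the pyrimidine synthase mean, -0.52 with THI7 and -0.34 with THI4. The median of 132 cytosolic ribosomal protein genes ran from -1.26 in line 44 to 1.49 in line 10, and its r was 0.64 with PHO3, 0.56 with THI20 and 0.05 with THI4. In bulk cultures, fewer cells with a transcript and less transcript per cell cannot be told apart. The part of culture state in the values of the thiamine genes was not tested.

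**Figure D4:**
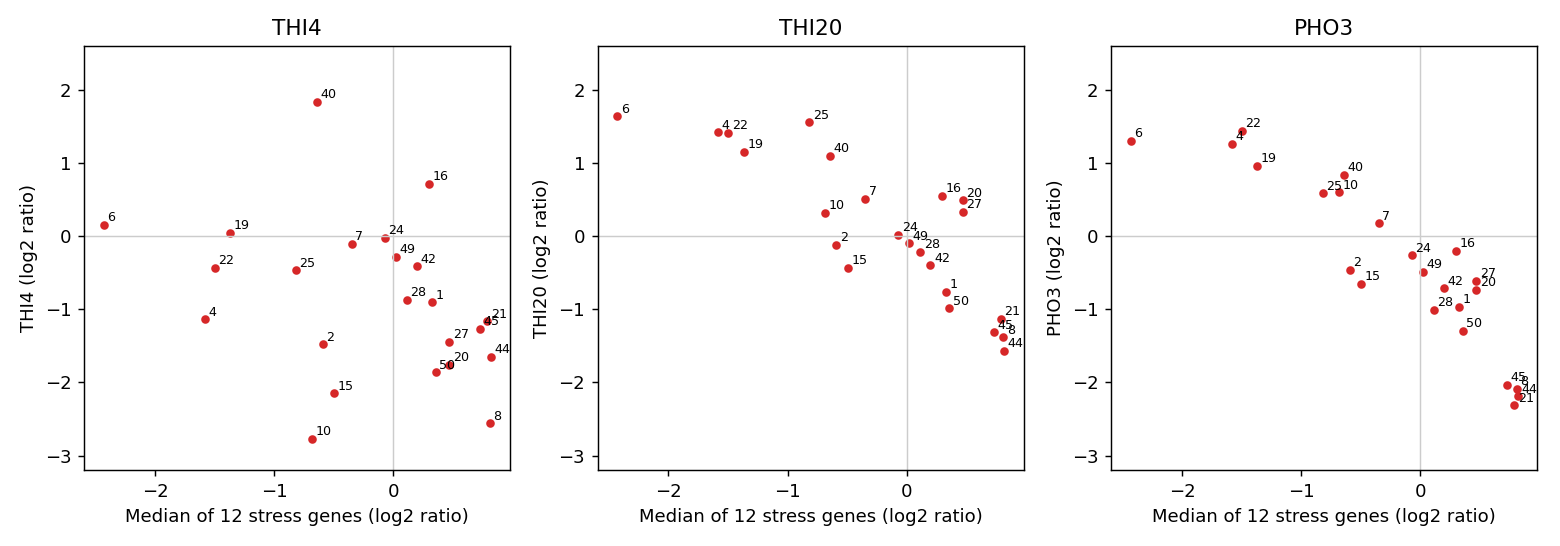
Deposited log ratio, read as log2, of THI4, THI20 and PHO3 (vertical axes) against the median of 12 stress genes (horizontal axes). There is 1 numbered point per line. PHO3 (r = -0.90) and THI20 (r = -0.83) are lower where the stress median is higher, with lines 8, 21, 44 and 45 at the end, and THI4 (r = -0.34) scatters.

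The leading component of the whole table held 44.0% of the variance between lines, and its r was 0.90 with PHO3, 0.84 with THI6, 0.83 with THI20, 0.70 with THI21, 0.64 with THI7, 0.45 with the pyrimidine synthase mean and 0.20 with THI4. With that component removed, THI4 and the pyrimidine synthase mean kept r = 0.92. Pairs among THI6, THI20, THI21 and PHO3 then had r from 0.61 to 0.82, and pairs between these and the precursor genes had r from 0.45 to 0.71, so that the ranges overlapped. THI4 with PHO3 went from 0.48 to 0.71, and THI7 with THI20 from 0.57 to 0.08. The median over the 21 pairs was 0.66, close to the 0.68 of the deposited values.

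**Figure D5:**
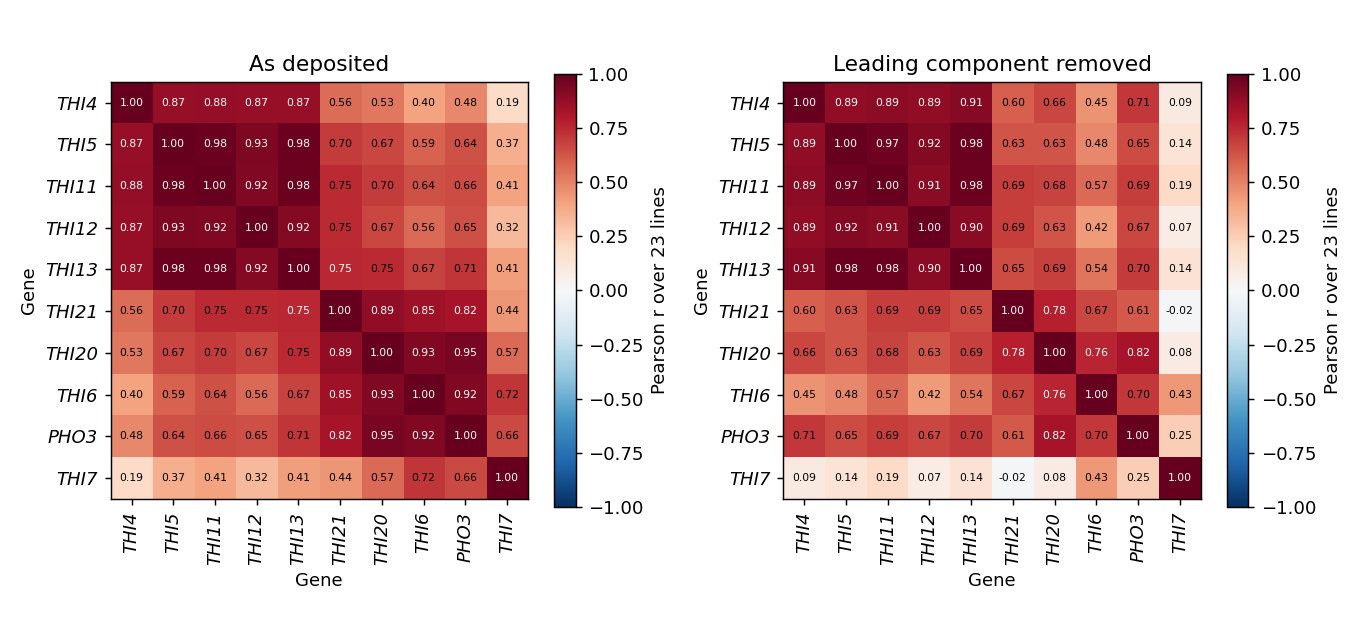
Pearson r over 23 lines between each pair of thiamine genes, for the deposited values (left) and with the leading component of the whole table removed (right). THI4 and the THI5 family form a block of r of 0.87 or more on both sides, the block of THI21, THI20, THI6 and PHO3 is paler on the right, and THI7 is palest.

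The means over lines followed the order THI4, THI5, THI12, PHO3, THI13, THI7, THI11, THI20, THI6 and THI21. By limma, THI4 (-0.87 ± 0.21, SE, n = 23, adjusted p = 0.00908) and THI21 (0.32 ± 0.10, adjusted p = 0.0427) had means that differed from 0, which is 2 of 10 where 9.22% of all features did, and 4 of 10 had an unadjusted p under 0.05, where 24.3% of all features did. The negative side had 1 of 10, with 5.23% over all features, and the positive side had 1 of 10, with 3.99%. These means were known when the genes were chosen, and nothing is read from the counts. The call of THI21 was lost when any 1 of 13 lines was left out (2, 4, 6, 7, 19, 20, 22, 24, 25, 27, 28, 40 or 49, with adjusted p up to 0.0717 by limma), so that the count was then 1 in all but the omission of line 40, where THI5 was called (adjusted p = 0.0421). The means of the other genes, from THI5 (-0.45 ± 0.19) to THI6 (0.11 ± 0.11), were not distinguished from 0.

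Most neighbours in that order differed by less than the SE of their difference, and every difference was below its SD over lines. THI5 exceeded THI4 by 0.42 ± 0.11 (SE, n = 23) and was above it in 21 of 23 lines. THI21 exceeded THI6 by 0.20 ± 0.06 and was above it in 19 lines. THI20 exceeded THI11 by 0.32 ± 0.16, in 13 lines. Each of the remaining 6 neighbouring pairs differed by 0.12 or less with an SE of 0.08 to 0.21, and the higher mean belonged to the higher gene in 10 to 14 lines. These values are ratios to the reference for each gene, not levels of transcript.

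No single line was called apart from the others for a thiamine gene. By limma, with 1 line set against the mean of the rest, 0 of 230 gene and line pairs had an adjusted p under 0.05 with a difference of 1 or more, where 0.068% of all pairs did. The lowest adjusted p was 0.520, for THI4 in line 40. The same count was 0 under robust eBayes, and 9 pairs had an unadjusted p under 0.05, or 3.91% where 5.34% of all pairs did. Of these 9, the 5 in line 40 were THI4 and the 4 pyrimidine synthase genes, with differences from the other lines of 2.07 (THI12) to 2.83 (THI4), and THI7 in line 42 differed by 1.74. A gene that varies widely in all lines needs a larger departure to be called in 1.

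Genes of the pathway outside the set were taken from lists of regulators, other enzymes and carriers, vitamin B6 genes, acid phosphatases and enzymes that use thiamine diphosphate. By limma, 3 of these 28 genes had a mean that differed from 0, 1 positive (3.99% over all features) and 2 negative (5.23%). Over all features 9.22% were called, so the share among these genes was close to the background and is no result about them. SNO3, the glutaminase partner of SNZ3, had a mean of 0.33 ± 0.08 (SE, n = 23, limma adjusted p = 0.00851), was positive in 18 of 23 lines, and kept its call in each of 28 alternative settings. PDC5, a pyruvate decarboxylase gene, had a mean of -0.58 ± 0.18 and ran from -2.10 in line 44 to 0.95 in line 22. ARO10, a phenylpyruvate decarboxylase gene, had a mean of -0.37 ± 0.12 and ran from -1.39 in line 4 to 1.01 in line 20. The calls of PDC5 and ARO10 were each lost when lines 1 and 45 were averaged into 1 column, and when any 1 of 11 and 14 lines was left out (adjusted p up to 0.0676 and 0.0745 by limma). Those were lines 1, 7, 15, 20, 21, 24, 27, 28, 44, 45 and 50 for PDC5, and lines 1, 2, 4, 6, 8, 19, 22, 24, 25, 27, 28, 42, 45 and 49 for ARO10.

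None of the 3 regulator genes had a mean that limma called, with 1 (THI3) at an unadjusted p under 0.05, where 9.22% and 24.3% of all features were. THI2, a transcriptional activator gene of the pathway, had an SD of 0.40 and ran from -0.50 in line 8 to 0.84 in line 6. Its r was 0.82 with THI20 (rho 0.85) and 0.46 with THI4, and both were 0.50 with the leading component removed. THI3, which acts as the thiamine diphosphate sensor, had an SD of 0.28 and r of 0.72 with THI20 and 0.37 with THI4, or 0.45 and 0.32 with the component removed. PDC2, an activator gene also needed for pyruvate decarboxylase expression, had an SD of 0.20, below the median over all features, with r of 0.20 with THI20 and -0.20 with THI4.

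Other enzymes and carriers had 0 of 6 means called by limma, with 0 at an unadjusted p under 0.05, where 9.22% and 24.3% of all features were. THI80, which makes thiamine diphosphate, ran from -0.83 in line 45 to 1.22 in line 6, with r of 0.79 with THI20 and 0.39 with THI4. With the leading component removed these were 0.35 and 0.41. THI73, a putative permease gene, had an SD of 0.92 and ran from -1.78 in line 8 to 1.71 in line 6. TPC1, the mitochondrial carrier of thiamine diphosphate, had an SD of 0.15.

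The vitamin B6 genes divided. SNZ2 and SNZ3, beside THI12 and THI5, were nearly parallel (r = 0.99) and were highest in line 40 (1.36 and 1.45). Their r with THI4 was 0.61 and 0.58, or 0.82 and 0.83 with the leading component removed. With it removed, r was 0.63 for SNZ2 with THI12 and 0.69 for SNZ3 with THI5. Their r with the component itself was 0.83 and 0.86. Cross-hybridization between the spots of SNZ2 and SNZ3 was not tested. SNZ1 and SNO1, which are not neighbours of a gene of the set, departed in line 8, at 2.77 and 2.71 where the other lines averaged 0.11 and 0.07 (limma adjusted p = 0.00163 and 1.63e-05 over all features and lines). These were the 2 departures called among 644 pairs of the 28 genes, where 0.068% of all pairs were called. Under quantile normalization the differences were 1.57 for SNZ1 and 1.49 for SNO1, and the call of SNZ1 was lost (limma adjusted p = 0.111) while that of SNO1 was not (0.0335). In line 8, where 0.0947% of features were called, THI4 was at -2.56 and the pyrimidine synthase mean at -1.97. Outside line 8, SNZ1 was highest in lines 45 (1.45) and 1 (0.66), as was SNO1 (0.64 and 0.57).

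The other acid phosphatase genes ran with PHO3. PHO5, its tandem neighbour and close paralog, had r = 0.97 with PHO3, PHO12 had 0.93 and PHO11 had 0.91. None of the 3 had a mean called by limma, and 0 had an unadjusted p under 0.05, where 9.22% and 24.3% of all features did. With the leading component removed the values were 0.90, 0.70 and 0.62. PHO5 and PHO3 share much of their sequence, and cross-hybridization among the spots of PHO3, PHO5, PHO11 and PHO12 was not tested. Among the 10 enzymes that use thiamine diphosphate, the pyruvate decarboxylase gene PDC1 ran from -1.20 in line 44 to 1.01 in line 10, and PDC5 had r of 0.72 with THI20 and 0.27 with THI4. With the leading component removed these r were 0.07 and 0.20. The 10 enzyme genes did not run one way against the median profile of the thiamine genes. Of these, 4 had a positive r with it (up to 0.75, PDC1) and 6 a negative one (down to -0.74, the transketolase gene TKL2). Each had the same sign of r with the leading component, from -0.79 (TKL2) to 0.86 (PDC1).

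The 8 features outside the set most like the median profile of the thiamine genes, by Pearson r over 23 lines, were PHO5 (0.95), SCW10 (0.90), PHO12 (0.89), PHO11 (0.89), THI73 (0.89), GAS1 (0.88), SNZ3 (0.87) and ASP1 (0.87). SCW10 and GAS1 encode enzymes of the cell wall, and ASP1 encodes an asparaginase. The 3 least like it were FMP16 (-0.88), EGO4 (-0.88) and GDB1 (-0.88), the last a glycogen debranching enzyme gene. That profile is the median of 7 values per line, with the pyrimidine synthase family as 1. Its r was 0.82 with the leading component. Within the set, the profile had r of 0.95 with PHO3 and THI20, 0.94 with THI6 and 0.87 with THI21. It had r of 0.76 to 0.83 with the pyrimidine synthase genes, 0.70 with THI7 and 0.59 with THI4. The ranking therefore reflects likeness to PHO3, THI20 and THI6 more than to THI4 or THI7. Whether PHO5 and PHO3 share signal was not tested.

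Likeness to the precursor genes alone was ranked as well, a choice made after the values were seen. PET18, whose product has weak similarity to proteins of thiamine metabolism, had r = 0.84 (rho 0.76) with the mean of THI4 and the pyrimidine synthase mean. It ran from -0.86 in line 8 to 1.59 in line 40, the same lines as the extremes of THI5. EMP65 (0.76) and UCC1 (0.76) came next but varied little, with SDs of 0.21 and 0.13 where the median over all features was 0.256. SNZ3 (0.66) was among the first 8 of this ranking and of that by the median profile.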

How the data were processed

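Two-channel spotted-oligo arrays compared cDNA of 23 lines with YPS183 cDNA, per the labels' protocols. The deposited values are the authors' normalized log ratios, read here as log2. Base, numerator, background correction, normalization method, filters, filling of missing values and averaging are not given in the sources used. The table had 6334 features and no missing value. No spot intensities were used, so how precise any 1 ratio is cannot be given, and the number of lines limits precision.

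Systematic names were paired with RefSeq R64 symbols, 5623 exactly and 194 after a dropped hyphen was restored; 517 were not matched. A limma model (version 3.58.1, R version 4.3.3, eBayes, two-sided) tested each feature's mean, and a second with a term for 1 line tested that line. Benjamini-Hochberg adjustment ran over all features, or all features and lines, with a threshold of 0.05 and, for single lines, a difference of 1 or more. The p-values measure the spread between columns. Correlations, with no p, and SDs used Python 3.11.15 with pandas 2.3.3. The fits were tried on simulated data in which features were drawn independently. The real columns were correlated, so that trial gives no call rates for them.

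The 10 genes and the lists were chosen with earlier results of these data known. Named genes were all 10, called genes of the other lists, the 3 regulators, and the 8 features most and 3 least like the median profile. Other genes were named after their values were seen. Alternatives were 2 scalings, array weights, robust eBayes, lines 1 and 45 averaged, the leading component removed, and each line left out. No sequence is printed.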

Additional observations from a re-analysis of the deposited data

How the results depend on the processing

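The count of thiamine genes with a mean called by limma was 2 as deposited, 2 with columns scaled to 1 median absolute deviation, under quantile normalization, robust eBayes and the averaging of lines 1 and 45, and 1 to 2 with a line left out. With array weights it was 6, where 20.5% of all features were called. The count for the other 28 pathway genes was 3 as deposited, 7 with array weights, 1 with lines 1 and 45 averaged, and 1 to 4 with a line left out, at its lowest without line 1, 24, 27, 28 or 45. The single-line departures of these 28 genes were 2 as deposited and 1, SNO1 in line 8, under quantile normalization. Those of the thiamine genes were 0 under every alternative run. The mean of THI20 was 0.09 as deposited and -0.048 with array weights, and the other 9 means kept their sign in each of the 28 alternatives run. The median SD of the set was 1.00 as deposited, 0.754 with the leading component removed, and 0.904 to 1.02 with a line left out, lowest without line 40. The median pairwise r was 0.68 as deposited and lay between 0.60 (quantile normalization) and 0.71 (Spearman rho) under the other settings, and between 0.64 and 0.73 with a line left out. The causes of these changes were not tested. No paired analysis was possible because the lines form 1 group. The reference has no spread of its own in these values, and ratios alone give no signal over background, so dim spots cannot be told from bright ones.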
